A study of Mus musculus with 30 samples.

Results

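Transcripts of 9 genes of the cytotoxic granule were followed in mouse blood across 6 groups. They encode the granzymes Gzma, Gzmb, Gzmk and Gzmm, the pore-forming protein Prf1 (perforin), the granule membrane protein Nkg7, the chemokine Ccl5, the proteoglycan core protein Srgn (serglycin) and the cysteine protease Ctsw (cathepsin W). The 9 genes, like the gene lists below, were chosen with earlier results of these data known. They were taken as every probe, control spots aside, that the array design names for one of these genes, and the rule used no measured value. It found all 9 genes, of 29709 distinct names on the array, with 12 probes among 39429 distinct probes, and all 12 were among the 23609 probes bright enough to be tested. Gzma, Gzmk and Nkg7 had more than 1 probe, and for each gene the brightest stood for the gene.

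The blood came from male C57BL/6J mice of 3 genotypes, written p38WT, p38DKI and p38DN in the labels, which do not spell out the alleles or give an age. Each genotype was studied without irradiation and 24 h after x-rays at a dose of 7 Gy, with 5 independent experiments per genotype and treatment, so that 6 groups were read on 30 one-colour arrays. Blood was drawn by cardiac puncture and lysed in PAXgene solution. The title of the series asks how the p38 kinase cascade bears on biodosimetry, which is the reading of a radiation dose from a biological sample.

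Cytotoxic lymphocytes, which are natural killer (NK) cells and cytotoxic T cells, kill by releasing the content of granules onto a target cell. Perforin opens the membrane of the target, and granzymes enter and cut proteins inside it. Granzyme B cuts after aspartate and activates caspases, granzyme A and granzyme K are trypsin-like proteases, and granzyme M cuts after methionine or leucine. Serglycin holds granzymes in the granule and is also abundant in platelets, neutrophils and mast cells. CCL5 is a chemokine stored by cytotoxic lymphocytes and by platelets. In mouse blood granzyme A and perforin RNA are typical of NK cells, while granzyme K is known mainly from T cells.

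Upstream sequences from RefSeq (build GRCm38.p6) are shown for the 3 classic effectors and for Gzmk, a granzyme with a lower mean after irradiation. Each is the 250 bases before the start, 5′ to 3′ on the strand of the gene. Capitals mark the RUNX core ACCACA, the T-box motif AGGTGT and the AP-1 site TGANTCA, each on either strand, so that TGTGGT and ACACCT are the same motifs read backwards. RUNX and T-box proteins are transcription factors of cytotoxic lymphocytes. The positions are chr14:56262335-56262584 (minus strand) for Gzmb, chr13:113100982-113101231 (minus) for Gzma, chr10:61297586-61297835 (plus) for Prf1 and chr13:113180966-113181215 (minus) for Gzmk.
Gzmb: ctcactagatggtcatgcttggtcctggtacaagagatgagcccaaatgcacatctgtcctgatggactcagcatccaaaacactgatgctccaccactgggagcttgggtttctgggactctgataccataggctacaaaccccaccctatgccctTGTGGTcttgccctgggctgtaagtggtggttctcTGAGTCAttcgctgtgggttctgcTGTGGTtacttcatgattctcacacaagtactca
Gzma: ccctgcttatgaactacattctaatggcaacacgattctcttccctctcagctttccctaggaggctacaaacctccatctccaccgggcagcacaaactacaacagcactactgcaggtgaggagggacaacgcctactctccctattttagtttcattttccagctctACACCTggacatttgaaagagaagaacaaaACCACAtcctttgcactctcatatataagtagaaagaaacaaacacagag
Prf1: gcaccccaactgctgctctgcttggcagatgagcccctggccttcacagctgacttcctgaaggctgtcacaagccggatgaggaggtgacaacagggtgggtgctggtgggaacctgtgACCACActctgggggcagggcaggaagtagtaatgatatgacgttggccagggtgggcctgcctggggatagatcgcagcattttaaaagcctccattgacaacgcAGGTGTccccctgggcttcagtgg
Gzmk: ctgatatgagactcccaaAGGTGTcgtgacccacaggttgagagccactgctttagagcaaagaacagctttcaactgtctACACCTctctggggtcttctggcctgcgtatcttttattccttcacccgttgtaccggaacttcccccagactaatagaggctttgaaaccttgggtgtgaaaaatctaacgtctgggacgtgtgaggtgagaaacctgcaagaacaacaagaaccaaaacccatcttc
Gzmb held a RUNX core beginning at -93 and another at -34, counted from the start, and an AP-1 site at -58. Gzma held a T-box motif at -80 and a RUNX core at -50, and Prf1 a RUNX core at -130 and a T-box motif at -24. Gzmk held T-box motifs at -232 and -169, with no RUNX core in this window. Gzmm, whose mean was also lower after irradiation, had 2 windows. The first held a RUNX core at -247, and the second held none of these motifs. The CRE TGACGTCA was searched too and was in no member window. The motifs do not overlap one another. Sequences were found for 7 members (all but Ccl5 and Ctsw) in 9 windows of 300 bases, of which 6 held the RUNX core and 4 the T-box motif. Among 32851 such windows of mouse genes, 16.8% held the RUNX core, 13.7% the T-box motif, 7.81% the AP-1 site and 1.79% the CRE. A match is a string of letters and was not tested as a binding site.

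Levels are log2 processed signal minus the 75th percentile of that array, so a step of 1 is a 2-fold difference in the same probe. The 75th percentile lay between intensities of 43.3 and 230, and each array had 39.7 to 63.2% of its probes well above background. Every member probe was well above background on all 30 arrays except the Gzmm probe (29 arrays) and the dimmer Gzmk probe (20 arrays, none of them p38DN), and no member spot was saturated. Arrays 4 and 5 of the unirradiated p38DN group differed by a median absolute deviation of 0.114 over 3118 bright probes (r = 0.9965), close to the 0.097 that repeated spots of these arrays give, while the other 59 pairs within groups differed by 0.185 to 1.12. They were counted as 1 sample, so that this group has n = 4 and the series 29 samples. Array 2 of the irradiated p38DKI group stood apart: its mean of 19 hepatocyte markers was 9.16 (log2) above the median array, its mean member level was 2.33 against 4.38 to 4.88 on the other 4, and it was lowest of its group in 9 of 9 members. Its 75th percentile of 230 was the highest of the series, against 67.5 to 118 on the other 4 arrays of its group. Subtracting that value lowers all its scaled levels. Irradiation results of p38DKI are therefore given with and without this array. Hepatocyte markers were also 6.99 to 8.07 above the median on p38DN unirradiated arrays 2, 4 and 5. Repeated spots had an SD of 0.511 on p38WT irradiated array 3, against 0.053 to 0.087 on the other arrays. Because these are bulk samples, fewer cells of a type and less RNA per cell cannot be told apart.

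**Figure D1:**
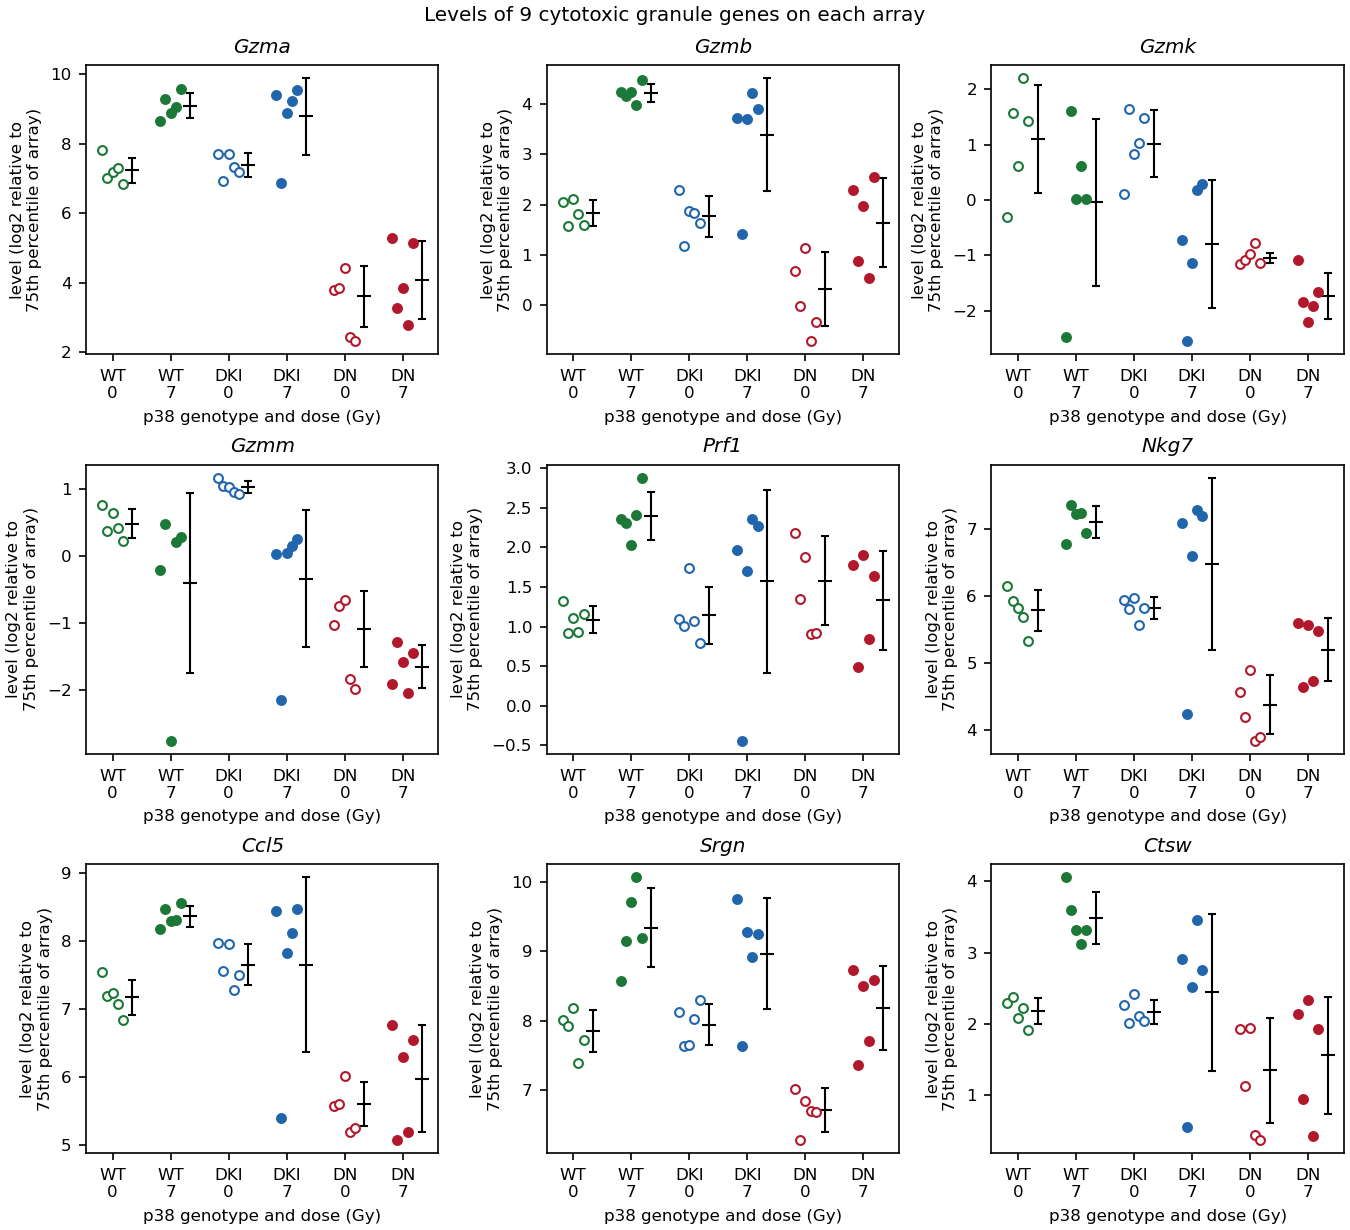
Level of each gene (log2 relative to the 75th percentile of the array, vertical axis) by p38 genotype and dose in Gy (horizontal axis). Points are arrays, open without irradiation and filled after 7 Gy, and black marks are means ± SD over the samples counted. Gzmb rose from 1.83 to 4.23 in p38WT, Gzmk and Gzmm had lower means after 7 Gy in each genotype, and 1 irradiated p38DKI array lay below the rest in every panel.

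In p38WT blood 7 of the 9 genes were higher 24 h after 7 Gy. They were the protease Gzmb, with the largest change (5.27-fold), Gzma, Srgn, Nkg7, Prf1, Ctsw and Ccl5. Their rises ran from 2.28-fold for Ccl5 to 5.27-fold for Gzmb. Gzmk and Gzmm did not pass, and their mean levels were lower after irradiation. Among all probes tested 15.0% were called higher and 11.8% lower in this comparison, with limma and a Benjamini-Hochberg adjusted p under 0.05. The median log2 change was 1.31 over the 9 members and -0.03 over all probes.

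The Gzmb probe (A_51_P333274, mm9 chr14:56877916-56877975) read 2.05, 1.57, 2.12, 1.82 and 1.59 on the unirradiated arrays. After 7 Gy it read 4.24, 4.18, 4.25, 3.98 and 4.50. The lowest irradiated array was above the highest unirradiated one by a wide gap. The log2 change was 2.40 (SE 0.419, 95% interval 1.54 to 3.26, limma adjusted p = 0.000151), from 1.83 ± 0.252 to 4.23 ± 0.183 (SD, n = 5).

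Gzma (A_55_P2094060, mm9 chr13:113884035-113884094) read 7.80, 7.01, 7.20, 7.31 and 6.83 without irradiation. Its irradiated arrays read 8.65, 9.28, 8.87, 9.06 and 9.57. No irradiated array overlapped the unirradiated range. The change was 1.86 (SE 0.465, adjusted p = 0.00395), and a second probe of Gzma (A_55_P2011341), which overlaps the first on the genome, gave 1.83 (adjusted p = 0.00556).

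Prf1 (A_55_P2000039, mm9 chr10:60766941-60767000), which makes the pore that lets granzymes in, was at 1.32, 0.92, 1.11, 0.93 and 1.16 on the unirradiated arrays. It was at 2.36, 2.30, 2.03, 2.41 and 2.88 after 7 Gy. The ranges did not overlap. Its change was 1.31 (SE 0.380, adjusted p = 0.0115). Nkg7 (A_55_P2009582, mm9 chr7:50693530-50693589), a membrane protein needed for granule release, rose by 1.32 (SE 0.377, adjusted p = 0.0104), from 5.78 ± 0.305 to 7.10 ± 0.239 (SD, n = 5). Another probe of Nkg7 (A_51_P499195) gave 1.40 (adjusted p = 0.0107).

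Srgn (A_55_P2094925, mm9 chr10:61957432-61957491) rose by 1.49 (SE 0.325, adjusted p = 0.00129), from a range of 7.39 to 8.18 to a range of 8.57 to 10.06. Ctsw (A_55_P2021981, mm9 chr19:5465315-5465374), a protease kept in the granule whose role in killing is not settled, rose by 1.30 (SE 0.402, adjusted p = 0.0175), from 1.91 to 2.38 before to 3.12 to 4.06 after. Ccl5 (A_52_P638459, mm9 chr11:83339296-83339355) rose by 1.19 (SE 0.404, adjusted p = 0.0300), from 6.83 to 7.54 before to 8.18 to 8.55 after. In all 7 called members the irradiated and unirradiated p38WT arrays did not overlap, a separation upwards that 13.1% of all probes showed. Ccl5 passed least firmly. Its adjusted p lay between 0.0512 and 0.0615 when any of p38WT unirradiated array 2, 4 or 5 or p38WT irradiated array 2 or 5 was left out.

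Gzmk (A_66_P140238, mm9 chr13:113970774-113971087) and Gzmm (A_55_P2150757, mm9 chr10:79157946-79158005) went the other way without passing in p38WT. Gzmk read -0.31, 1.57, 0.62, 2.2 and 1.42 without irradiation. It read -2.48, 1.61, 0.01, 0.61 and 0.01 after 7 Gy. The arrays overlapped widely, and the change was -1.15 (SE 0.565, adjusted p = 0.140), or -1.56 (adjusted p = 0.0417) without irradiated array 2. A second Gzmk probe (A_55_P2042331) gave -0.73 (adjusted p = 0.350). On the unirradiated arrays it read -0.458, -1.913, -0.555, -1.511 and -1.885. It was thus highest on array 1, where the brighter Gzmk probe was lowest. Gzmm changed by -0.88 (SE 0.455, adjusted p = 0.159), and -0.29 (adjusted p = 0.589) without the noisy irradiated array 3, where it read -2.76 and was not well above background.

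The slide, a glass carrying up to 4 arrays, was partly tied to the dose. A single p38WT slide held both doses, with 3 irradiated arrays and 1 unirradiated array. On that slide the 7 called members differed by 1.07 (Prf1) to 2.63 (Gzmb). With slide as a fixed block none of the 9 members was called (limma smallest adjusted p = 0.120, and 5 at an unadjusted p under 0.05). That fixed block compares the p38WT doses only on the slide holding both, and so rests on 1 unirradiated array. With slide as a random block the count was 7. Normexp background correction left 1 member called, Gzmb (limma adjusted p = 0.0382). Over all probes it called 554 higher and 1160 lower, against 3535 and 2786 in the main fit. With no scaling between arrays 4 members were called higher and 2 lower, the latter being Gzmk and Gzmm. Over all probes 1048 were then called higher and 4098 lower.

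**Figure D2:**
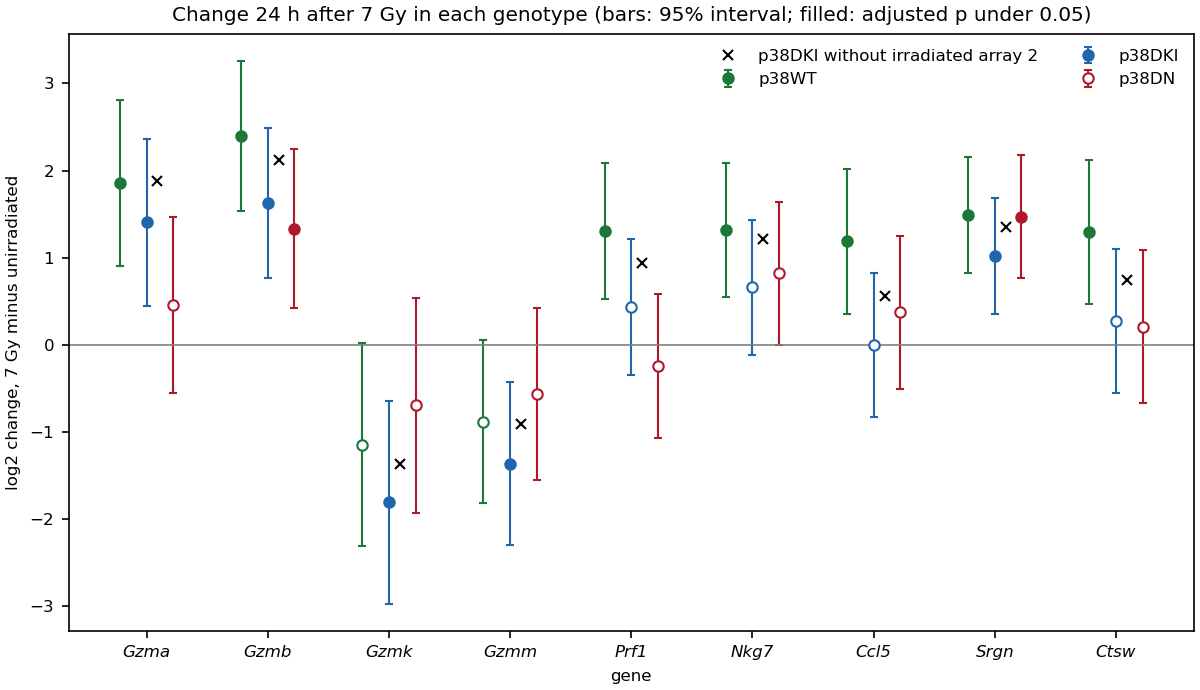
Log2 change between 7 Gy and unirradiated blood (vertical axis) for each gene (horizontal axis) in the 3 genotypes, with bars for the 95% interval of the limma fit and filled points for an adjusted p under 0.05. Crosses give p38DKI without irradiated array 2. In p38WT 7 points are filled above 0, and no point of Gzmk or Gzmm lies above 0 in any genotype.

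In p38DKI blood 3 members rose (Gzmb, Gzma and Srgn) and 2 fell (Gzmk and Gzmm), while Prf1, Nkg7, Ccl5 and Ctsw did not pass. Over all probes 11.5% were called higher and 18.9% lower. The count stayed at 5 without irradiated array 2, but the genes were different: Gzmb, Gzma, Srgn, Nkg7 and Prf1 rose and none fell. Without that array 14.2% of all probes were called higher and 15.3% lower.

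Gzmb read 2.29, 1.17, 1.88, 1.84 and 1.64 on the unirradiated p38DKI arrays. After 7 Gy it read 3.73, 1.41, 3.71, 4.22 and 3.9. Of the irradiated arrays 4 lay above all unirradiated ones, and array 2 lay among them. Before scaling, array 2 had an intensity of 614, above the unirradiated 122 to 439 and below the other irradiated arrays (1007 to 1672). The change was 1.63 (SE 0.419, 95% interval 0.77 to 2.49, adjusted p = 0.00478), and 2.13 (SE 0.341, adjusted p = 5.72e-05) without array 2. Gzma changed by 1.40 (SE 0.465, adjusted p = 0.0242), and by 1.88 (adjusted p = 0.00135) without array 2. Srgn changed by 1.02 (SE 0.325, adjusted p = 0.0196), and by 1.35 (adjusted p = 0.000984) without it. Leaving out other arrays lost the call of Gzma or Srgn: without p38DKI irradiated array 1 only Gzmb stayed called among the rises, with Gzma at an adjusted p of 0.0586 and Srgn at 0.0628. Without p38DKI unirradiated array 2 the values were 0.0606 and 0.05, and without irradiated array 4 or 5 Gzma was at 0.0523 or 0.0609.

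Nkg7 read 7.09, 4.24, 6.59, 7.28 and 7.19 after 7 Gy, against 5.56 to 5.97 before. Again array 2 was the exception, with a scaled level below every unirradiated array. Before scaling its intensity of 4346 lay within the unirradiated 3010 to 7475 and below the other irradiated arrays (9826 to 13914). The change was 0.66 (SE 0.377, adjusted p = 0.178) with it and 1.22 (SE 0.229, adjusted p = 0.000309) without it. For Prf1 the same values were 0.43 (adjusted p = 0.384) and 0.94 (adjusted p = 0.0122). Ccl5 and Ctsw were at -0.01 and 0.27 with array 2, and at 0.56 (adjusted p = 0.135) and 0.74 (adjusted p = 0.0928) without it.

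Gzmm read 1.17, 1.05, 1.03, 0.96 and 0.93 on the unirradiated p38DKI arrays. It read 0.03, -2.16, 0.05, 0.15 and 0.25 after 7 Gy. All 5 irradiated arrays lay below all 5 unirradiated ones, with or without array 2. The change was -1.37 (SE 0.455, adjusted p = 0.0250), and -0.91 (SE 0.408, adjusted p = 0.0970) without array 2. Gzmk changed by -1.81 (SE 0.565, adjusted p = 0.0174), and by -1.37 (SE 0.551, adjusted p = 0.0633) without it, and its second probe gave -1.21 (adjusted p = 0.0908). The 2 Gzmk probes did not follow each other among the unirradiated arrays. The brighter read 0.105, 1.645, 0.838, 1.024 and 1.486. The second read 1.379, -1.015, -0.007, -0.885 and -0.831, nearly the reverse order. Gzmm was the 1 member with separate groups in p38DKI, where 12.4% of all probes had every irradiated array below the unirradiated ones and 6.81% had them above. On the 1 slide with both doses of p38DKI (1 irradiated and 3 unirradiated arrays) Gzmb differed by 1.94 and Gzmm by -0.94, and with slide as a fixed block no member was called (limma smallest adjusted p = 0.0778, and 3 at an unadjusted p under 0.05). That block compares the doses on this slide only, and so rests on 1 irradiated array. With no scaling between arrays 5 members were called higher and 0 lower in p38DKI. Over all probes 4762 were then called higher and 897 lower, against 2721 and 4473 in the main fit.

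In p38DN blood 2 members rose, Gzmb and Srgn, and the other 7 did not pass. Among all probes 15.8% were called higher and 9.61% lower. The member median was 0.37, against -0.02 over all probes.

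Srgn read 7.02, 6.28, 6.84 and 6.69 in the 4 unirradiated p38DN samples. It read 8.73, 7.37, 8.50, 7.71 and 8.59 after 7 Gy. The groups did not overlap, and Srgn was the 1 member of which that was true in p38DN, where 13.0% of all probes were separated upwards. The change was 1.47 (SE 0.345, adjusted p = 0.00239). Gzmb read 0.68, -0.03, 1.13 and -0.53 without irradiation. It read 2.29, 0.88, 1.97, 0.53 and 2.55 after 7 Gy. The groups overlapped, with irradiated arrays 2 and 4 within the unirradiated range. Its change was 1.33 (SE 0.444, adjusted p = 0.0282).

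The Gzmb call in p38DN was lost (adjusted p from 0.0528 to 0.107) without any of irradiated array 1, 3 or 5, without unirradiated array 2, or without unirradiated arrays 4 and 5 together. With the hepatocyte score as a covariate it was 0.88 (adjusted p = 0.0691), and without the 4 arrays of highest score 0.74 (adjusted p = 0.155). Nkg7 changed by 0.82 (SE 0.400, adjusted p = 0.136). With p38DKI irradiated array 2 left out of the shared estimate of spread, Nkg7 in p38DN kept its change and had an adjusted p of 0.00767, which makes 3 members called. Gzma, typical of NK cells, was at 0.46 (SE 0.493, adjusted p = 0.540) and Prf1 at -0.25 (SE 0.403, adjusted p = 0.701). Prf1 read 2.18, 1.34, 1.88 and 0.91 before and 1.78, 0.49, 1.91, 0.84 and 1.64 after 7 Gy. Those ranges largely coincide. Ccl5 (0.37), Ctsw (0.21), Gzmm (-0.56) and Gzmk (-0.70) did not pass either.

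Each p38DN slide held 1 irradiated and 1 unirradiated array with the same replicate number, so the dose can be read within a slide. Hepatocyte marker means differed too, at 6.05 and 2.56 (unirradiated and irradiated) on slide 6 and -0.29 and -2.06 on slide 7. They were 0.44 and 0.79 on slide 8, 7.09 and 0.69 on slide 9, and 7.13 and 2.13 on slide 10. Their part in the member differences was not tested. Within slides Gzmb differed by 0.84 to 2.88, Nkg7 by 0.44 to 1.57 and Srgn by 1.01 to 1.91, above 0 on 5 of 5 slides in all 3 genes. How many of all probes lay above 0 on 5 of 5 slides was not counted, so this only describes the 3 genes. The unirradiated arrays of 2 of these slides are the near-identical pair counted as 1 sample elsewhere, so the 5 differences rest on 4 unirradiated samples. Gzma ran from -0.58 to 2.83 and was above 0 on 3 of 5 slides, and Prf1 ran from -0.85 to 0.72 and was above 0 on 2 of 5. With slide as a fixed block, fitted on all 30 arrays with that pair entered separately, 2 members were called in p38DN.

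**Figure D3:**
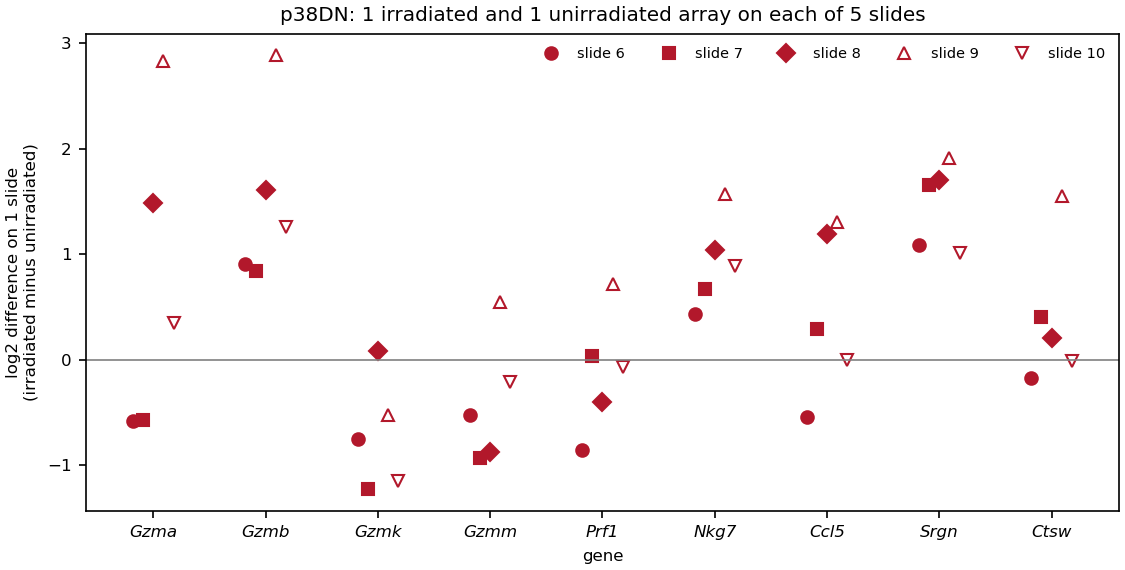
Log2 difference between the irradiated and the unirradiated p38DN array of each of 5 slides (vertical axis) for each gene (horizontal axis), 1 symbol per slide, where 2 slides share the near-identical unirradiated pair counted as 1 sample elsewhere. Gzmb, Nkg7 and Srgn lie above 0 on all 5 slides, while Gzma, Prf1, Ccl5 and Ctsw lie on both sides of 0. The share of all probes above 0 on all 5 slides was not counted.

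Whether the response to irradiation differed between genotypes was tested as a difference of the differences. No member was called for p38DKI minus p38WT (limma, 1 at an unadjusted p under 0.05, Ccl5 at -1.19 with adjusted p = 0.360), where 0.00847% of all probes were called. Without p38DKI irradiated array 2 Ccl5 was at -0.63 (adjusted p = 0.600), and again no member was called (limma, 0 at an unadjusted p under 0.05). No member was called for p38DN minus p38DKI (limma, 0 at an unadjusted p under 0.05), against 0.296% of all probes. Without that array none was called either (limma, 2 at an unadjusted p under 0.05), with Prf1 at -1.18 (adjusted p = 0.184) and Gzma at -1.43 (adjusted p = 0.294). None was called for p38DN minus p38WT either (limma, 2 at an unadjusted p under 0.05), against 0.822%. The members called in p38WT and not in another genotype are thus not shown to respond differently by this test. Under some alternatives Prf1, Ctsw and Gzmb did pass for p38DN minus p38WT.

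Prf1 had the smallest p in the p38DN minus p38WT comparison. The p38DN response minus the p38WT response was -1.56 on the log2 scale (SE 0.554, 95% interval -2.69 to -0.42, limma adjusted p = 0.150). The estimate is the same without p38DKI irradiated array 2, which belongs to neither genotype, but the shared spread is then smaller and Prf1 passes (SE 0.379, adjusted p = 0.0271). With the hepatocyte marker score of each array as a covariate it was -2.23 (adjusted p = 0.00447), and without the 4 arrays of highest score -2.01 (adjusted p = 0.0104). Ctsw was at -1.09 (adjusted p = 0.353), at -1.80 (adjusted p = 0.0193) with the covariate and at -1.68 (adjusted p = 0.0440) without those 4 arrays. Gzmb was at -1.07 (adjusted p = 0.387), and at -1.72 (adjusted p = 0.0477) with the covariate. For Prf1, over all alternatives the adjusted p ran from 0.00447 to 0.748. For Gzma the difference was -1.40 (adjusted p = 0.298), with an interval of -2.79 to -0.01, and for Srgn -0.02 with an interval of -0.99 to 0.96.

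p38DKI and p38WT blood were also compared directly at each dose. Without irradiation no member was called (limma, 0 at an unadjusted p under 0.05), against 0.106% of all probes. Gzma differed by 0.15 (95% interval -0.81 to 1.10), Gzmb by -0.07 (-0.93 to 0.79) and Prf1 by 0.05 (-0.73 to 0.83). After 7 Gy no member was called (limma, 2 at an unadjusted p under 0.05), against 4.67% of all probes. Those were Ctsw (-1.04, adjusted p = 0.116) and Prf1 (-0.83, adjusted p = 0.179), and without p38DKI irradiated array 2 they were at -0.57 (adjusted p = 0.393) and -0.32 (adjusted p = 0.594).

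Levels in p38DN blood were lower for most members. For Gzma the group means ran, from high to low, 9.09 ± 0.358 in irradiated p38WT, 8.78 ± 1.09 in irradiated p38DKI, 7.37 ± 0.342 and 7.23 ± 0.370 in unirradiated p38DKI and p38WT, 4.07 ± 1.12 in irradiated p38DN (SD, n = 5) and 3.61 ± 0.874 in unirradiated p38DN (SD, n = 4). The neighbours within each pair of that order differed by less than their spread. The 2 p38DN means were the lowest of the 6 in 7 of 9 members, and the share of all probes with that order was not counted. Prf1 and Srgn were the exceptions: Prf1 stood at 1.58 ± 0.563 in unirradiated p38DN (SD, n = 4) against 1.09 ± 0.167 in unirradiated p38WT (SD, n = 5). The p38DN arrays filled slides of their own and, per the file headers, were scanned apart from the others, so batch and genotype cannot be told apart for these levels. Hepatocyte markers were also 6.99 to 8.07 above the median array on p38DN unirradiated arrays 2, 4 and 5. Their part in these levels was not tested.

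The other genes of the granule pathway were read from 42 names in 7 lists, of which 37 were bright enough to test. In p38WT 16 rose and 2 fell, with a median change of 0.80. In p38DKI 12 rose and 1 fell (21 and 2 without irradiated array 2), and in p38DN 14 rose and none fell. Over all probes 15.0% were called higher and 11.8% lower in p38WT, and 15.8 and 9.61% in p38DN. In p38DKI these shares were 11.5 and 18.9%, or 14.2 and 15.3% without irradiated array 2. They apply to all lists below, and in a list of 6 genes 1 call is close to such a share. The list counts depend on the processing, as do the counts over all probes. Normexp background correction gave 4 higher and 1 lower in p38WT, 5 and 0 in p38DKI, and 0 and 0 in p38DN. With no scaling between arrays they were 3 and 3 in p38WT, 20 and 0 in p38DKI, and 13 and 0 in p38DN, and array median scaling gave 21 and 0 in p38DKI. Il2rb, Tbx21 and Eomes are also among the NK markers.

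Machinery of granule membrane and exocytosis, 11 genes, had 7 members higher in p38WT, 7 in p38DKI (9 without irradiated array 2) and 8 in p38DN, and none lower. With normexp 2, 2 and 0 were higher in p38WT, p38DKI and p38DN, and with no scaling 1, 8 and 7. Lyst, the lysosomal trafficking regulator, rose by 1.38 in p38WT, 1.31 in p38DKI and 1.41 in p38DN (adjusted p = 0.000104, 0.000174 and 0.000155), and by 1.5 in p38DKI without irradiated array 2. Lamp1, a lysosome membrane protein, rose by 1.01, 1.22 (1.24 without that array) and 1.35 in the same order. Stxbp2, which guides granule fusion, rose by 0.86 in p38WT (adjusted p = 0.00135) and 0.80 in p38DN (adjusted p = 0.00434), and was at 0.37 (adjusted p = 0.133) in p38DKI, or 0.58 (adjusted p = 0.00647) without that array. These genes serve lysosomes and granules in many blood cells, not only in lymphocytes.

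Of the 6 partner effectors 3 rose in p38WT, 1 in p38DKI (4 without irradiated array 2) and 3 in p38DN. Fasl, the death ligand of the other killing route, rose by 1.71, 1.53 and 1.57 in p38WT, p38DKI and p38DN (adjusted p = 0.000807, 0.00215 and 0.00284), and by 1.97 in p38DKI without that array. Tnfsf10 (TRAIL) rose by 1.22 in p38WT and 1.14 in p38DN, and Ifng, interferon gamma, by 1.28 and 1.16. In p38DKI these were at 0.44 and 0.85 without passing, and at 0.79 (adjusted p = 0.0345) and 1.33 (adjusted p = 0.00410) without irradiated array 2. Granzyme inhibitors and processing proteases split. Serpinb9, the inhibitor of granzyme B, rose by 1.23 in p38WT (adjusted p = 0.00399) and 1.04 in p38DKI (adjusted p = 0.0131, or 1.38 without irradiated array 2) and was at 0.67 (adjusted p = 0.138) in p38DN. Ctsc, the protease that activates granzymes by trimming them, fell by 1.13 in p38WT (adjusted p = 0.00292) and was at 0.13 and -0.43 in p38DKI and p38DN without passing, and its cousin Ctsh fell by 0.97 in p38WT (adjusted p = 0.0340). Cst7, an inhibitor of such cathepsins, was at 0.80 (adjusted p = 0.140) in p38WT.

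Among 6 transcription factors 2 rose in each genotype (3 in p38DKI without irradiated array 2). Zeb2 rose by 0.98, 0.85 (1.18 without that array) and 1.75 in p38WT, p38DKI and p38DN. Tbx21 (T-bet) rose by 1.10 in p38WT (adjusted p = 0.0251), and its relative Eomes was at 0.65 (adjusted p = 0.234). Of 6 cytokine receptors 2 rose in p38WT, Il18rap by 1.69 (adjusted p = 0.00152) and Il2rb by 1.21 (adjusted p = 0.0268), and 1 in p38DN, Il2rb by 1.56 (adjusted p = 0.00797). In p38DKI none rose and 1 fell, against 2 higher and 2 lower without irradiated array 2, and 2 higher and 0 lower with array median scaling or with no scaling. Without that array Il2rb was at 1.42 (adjusted p = 0.00137) and Il18rap at 0.94 (adjusted p = 0.0474). Il12rb2 was at 0.67 (adjusted p = 0.189) in p38WT. Of the other 6 granzymes 2 were bright enough, and Gzmc rose by 1.01 in p38WT (adjusted p = 0.0336) while Gzme was at -0.23 (adjusted p = 0.753).

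In p38WT and p38DKI every NK marker called in the main fit rose and every T cell marker called fell. In p38DN each of the 2 lists held 1 exception. Of 16 NK markers 11 rose and none fell in p38WT, 4 rose in p38DKI (10 without irradiated array 2), and 4 rose and 1 fell in p38DN. With normexp 2, 1 and 0 rose in p38WT, p38DKI and p38DN, and with no scaling 8, 12 and 5. In the main fit 15.0, 11.5 and 15.8% of all probes were called higher in the same order. Ncr1, which defines NK cells, rose by 1.68 in p38WT (adjusted p = 0.00317) and was at 0.89 and 0.06 in p38DKI and p38DN (adjusted p = 0.0982 and 0.941), with 1.34 (adjusted p = 0.00523) in p38DKI without irradiated array 2. Klrb1c (NK1.1) rose by 1.99 in p38WT (adjusted p = 0.000288) and 1.16 in p38DKI (adjusted p = 0.0197, or 1.57 without that array) and was at 0.80 (adjusted p = 0.137) in p38DN. The activating receptor Cd226 rose by 1.75 and Klra9, an NK receptor of the Ly49 family, by 1.46 in p38WT.

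The mean of the NK list ran from 1.19 to 1.59 on unirradiated and from 2.39 to 2.84 on irradiated p38WT arrays. In p38DKI it ran from 1.03 to 1.53 and from 0.08 to 2.42, with array 2 at 0.08. In p38DN it ran from -1.22 to -0.01 and from -0.67 to 0.73. In p38WT both the NK mean and the member mean were higher on every irradiated array than on any unirradiated one (member mean 4.46 to 5.16 against 3.67 to 3.96). The NK cells' part in the member changes was not tested.

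Of 16 T cell markers none rose and 6 fell in p38WT, none rose and 12 fell in p38DKI (10 without irradiated array 2), and 1 rose and 6 fell in p38DN. With normexp 7, 7 and 1 fell. In the main fit 11.8, 18.9 and 9.61% of all probes were called lower in p38WT, p38DKI and p38DN. Cd8a, which defines cytotoxic T cells, fell by 2.83, 3.76 and 3.43 in p38WT, p38DKI and p38DN (adjusted p = 0.000270, 8.90e-06 and 7.14e-05; 3.10 in p38DKI without irradiated array 2), and its partner Cd8b1 by 3.05 in p38WT. Cd3e was at -0.53 (adjusted p = 0.371) in p38WT and fell by 1.28 (adjusted p = 0.0145) in p38DKI, or by 0.74 (adjusted p = 0.0291) without that array. Ccr7 and Tcf7, both known from naive T cells, fell by 3.70 and 3.06 in p38WT. The mean of the T list was 2.96 to 3.37 on unirradiated and 0.98 to 2.38 on irradiated p38WT arrays. Platelet markers, which bear on Srgn and Ccl5, rose in 12 of 13 in p38WT, 4 of 13 in p38DKI (12 without array 2) and 13 of 13 in p38DN, and with normexp in 0, 0 and 6. Neutrophil markers rose in 12 of 15 in p38WT, 10 of 15 in p38DKI (11 without array 2) and 1 of 15 in p38DN, and 1 fell in each of the latter groups. Their part in the changes of Srgn and Ccl5 was not tested.

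**Figure D4:**
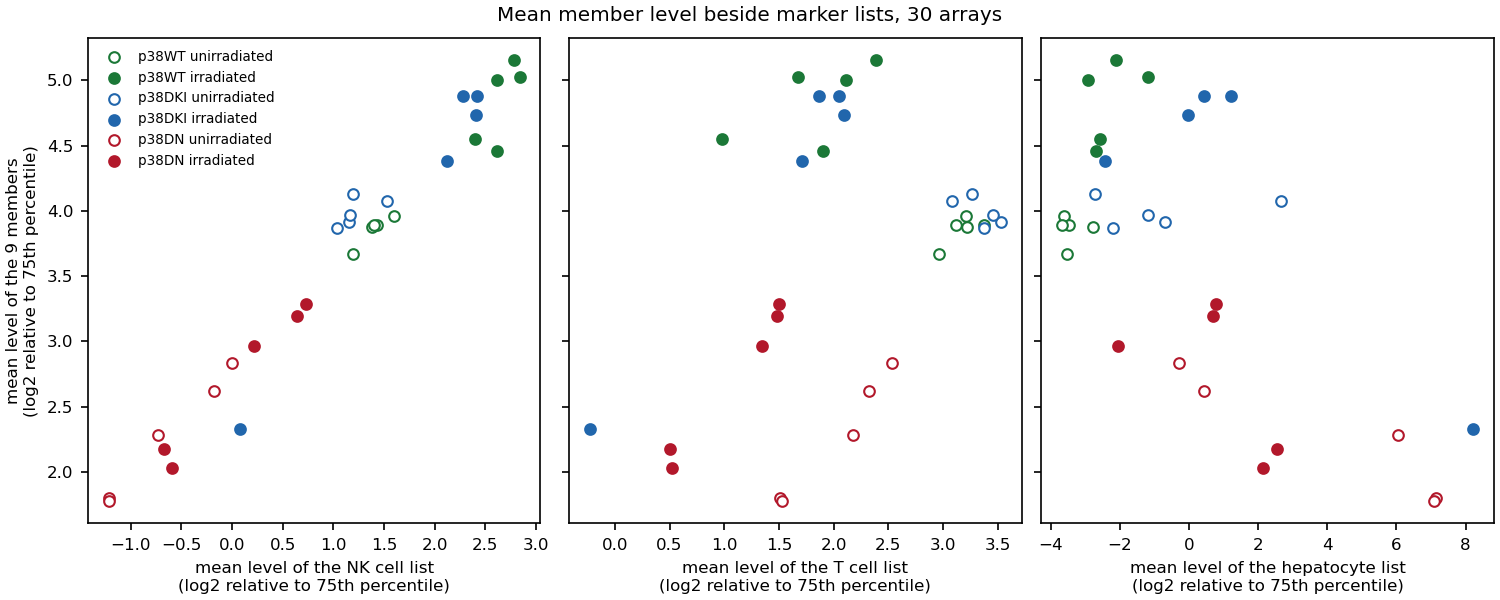
Mean level of the 9 members (vertical axis) against the mean level of the NK, T cell and hepatocyte lists (horizontal axes, all log2 relative to the 75th percentile) on 30 arrays. In p38WT the irradiated arrays lie above the unirradiated ones on both the member and the NK mean, with T cell means of 0.98 to 2.38 against 2.96 to 3.37. The irradiated p38DKI array at a hepatocyte mean of 8.22 has a member mean of 2.33.

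How the members varied among arrays of the same group was described by Pearson correlations of deviations from group means, over 29 samples. Those share the scaling and the makeup of each blood sample, so they are given with no test. All 36 member pairs were above 0, from 0.21 to 0.95 with a median of 0.65. Without p38DKI irradiated array 2 they ran from -0.16 to 0.88 with a median of 0.45, and 4 were below 0. Gzma and Gzmb were at 0.91 (0.87 without that array), Gzmb and Prf1 at 0.87 (0.76), and Gzmb and Gzmk at 0.23 (-0.09).

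The probes of other genes most like Gzmb were Klrb1c (0.95, and 0.91 without p38DKI irradiated array 2) and Klrc1 (0.95 and 0.90), with a probe that carries no gene name (A_55_P2022332) at 0.94. For Prf1 they were Eomes (0.93 and 0.85), Cst7 (0.92 and 0.81) and the dimmer probe of Nkg7 (0.92 and 0.80). Srgn had a different company: Ppp1r2 (0.97), Alox12 (0.97) and Abi2 (0.96). Gzmm had Pik3cd (0.93), Mgst2 (0.92) and Cdc14a (0.92). These were the highest among 23277 probes with a value on every array.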

How the data were processed

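RNA of 30 blood samples was read on one-colour Agilent arrays with Cy3. Per the file headers, the authors' scanner files hold background-subtracted processed signals in intensity units, made with Agilent Feature Extraction 12.0.2, with flags for outlier, saturated and well-above-background spots. The deposited value table holds log2 values, used as an alternative. The members and lists were chosen with earlier results of these data known.

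Control and flagged spots were left out, spots of a probe were averaged, and log2 signals were scaled by subtracting each array's 75th percentile. Probes were kept when well above background on at least 4 arrays of a group and valued on at least 20 arrays (23609 of 39429). R 4.3.3 and limma 3.58.1 (lmFit, contrasts.fit, eBayes) fitted 6 group means, with Benjamini-Hochberg adjustment over all kept probes and a threshold of 0.05. The plan was 30 arrays; the mean of 2 near-identical arrays was used as 1 sample, leaving 29 samples and 23 residual degrees of freedom, a choice made after the data were seen. The fit was run on simulated arrays with known changes and independent noise. The simulation held no slide effect, outlying array or near-identical pair. Numbers of arrays, not read depth, limit precision, and nothing in the labels beyond "independent experiments" says how samples were separated, so p-values measure the spread between these samples.

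All members were named, with every probe; from each list its counts, the 3 genes of smallest p in p38WT and the defining genes Ncr1, Klrb1c, Cd3e and Cd8a; and the 3 most alike probes of 4 members (over the 29 samples). Replicate numbers were shared between groups. Deviations of same-numbered samples correlated at -0.206 to 0.393, so in p38WT and p38DKI the numbers were not used as pairs; in p38DN a number is also a slide, per the file headers. Alternatives covered scaling, background correction, filters, slide, replicate number, hepatocyte markers and each array left out. Promoter sequences come from RefSeq (GRCm38.p6), probe positions from the array files (mm9). Figures were drawn with matplotlib.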

Additional observations from a re-analysis of the deposited data

Results flagged for a closer look

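Within-group spread was examined for 54 combinations of 9 members and 6 groups by the gap between the highest or lowest sample and its neighbour, relative to the whole range. In 7 of them 1 sample lay far from the rest, by a cut-off that chance passes about 1 time in 20 for a single combination. The members share arrays, so the 54 are not independent and the count cannot be held against that rate. Array 2 of the irradiated p38DKI group accounted for 6, each time as the lowest. There Gzma was at 6.87 (nearest other array 8.88), Gzmb at 1.41 (3.71), Gzmm at -2.16 (0.03), Prf1 at -0.45 (1.71), Nkg7 at 4.24 (6.59) and Ccl5 at 5.40 (7.82). The same array had the highest hepatocyte marker mean of the series, 9.16 above the median, and a T cell marker mean of -0.23, the lowest of the 30 arrays. The part of these in the low member values was not tested. Its 75th percentile was also the highest of the series, 230, and subtracting it lowers every scaled level of that array. Before scaling, Gzmb (614) and Nkg7 (4346) there were also below the other irradiated p38DKI arrays (1007 to 1672 and 9826 to 13914). Srgn (45715) was not, with 40926 on array 5 and 43407 on array 4. The other case was Gzmm at -2.76 on p38WT irradiated array 3 (nearest -0.22), the array with the largest spread between repeated spots.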

How the results depend on the processing

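The 8 comparisons were repeated under 49 alternatives, giving 3512 values for single members; 3288 kept their direction and side of the threshold, 56 were no longer called, 21 became called, 147 that were never called changed sign and 0 that were called changed sign. Main counts of called members were 7 (p38WT), 5 (p38DKI) and 2 (p38DN). Normexp background correction gave 1, 2 and 0, slide as a fixed block 0 in p38WT and 0 in p38DKI, and only the groups of the comparison 3 in p38DKI and 1 in p38DN. In p38DN the hepatocyte score as a covariate gave 1, and leaving out the 4 arrays of highest score gave 1. For p38DN minus p38WT those gave 3 and 2, in place of 0. The causes were not tested. Leaving out each array (and p38DN unirradiated arrays 4 and 5 together, added after seeing the data) gave 6 to 7 in p38WT, 3 to 5 in p38DKI, 1 to 3 in p38DN and 0 to 1 for p38DN minus p38WT; the other 4 comparisons stayed at 0 under every alternative. Counting arrays 4 and 5 separately, also added later, moved no count. With the replicate block the counts were 7, 5 and 2, and it changed no call; slide and replicate blocks were fitted on 30 arrays. Scaling moved the median of all probes by over 0.1: in p38WT by -0.43 with no scaling and -0.18 with a percentile taken over always-detected probes, in p38DKI by 0.63 with none, 0.42 with array medians and 0.14 with quantiles, in p38DN by 0.20 with none and -0.15 with that percentile; normexp moved p38WT by 0.24. The share of calls that were higher, 55.9, 37.8 and 62.2% in p38WT, p38DKI and p38DN, became 20.4, 84.1 and 75.5% with no scaling, 75.2% in p38DKI with array medians, 38.4 and 46.3% in p38WT and p38DN with the percentile over detected probes, 48.1% in p38DKI without irradiated array 2, and 32.3% in p38WT with normexp. The deposited table and the strict filter each held 8 of the 9 members.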

Other observations

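Gzma and Gzmk both lie on chromosome 13, and they changed by 1.86 (called) and -1.15 (not called) in p38WT and by 1.40 and -1.81 (both called) in p38DKI; the Gzmk call there was lost without irradiated array 2 (limma adjusted p = 0.0633). Prf1, Srgn and Gzmm lie on chromosome 10 and changed by 1.31, 1.49 and -0.88 in p38WT, of which Prf1 and Srgn were called.

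Mast cells and basophils also hold serglycin and granule proteases. Of 9 measured genes typical of them, 3 rose and 2 fell in p38WT, 1 rose and 3 fell in p38DKI (2 and 3 without irradiated array 2), and 3 rose and none fell in p38DN. In p38WT the basophil protease Mcpt8 fell by 3.61 (limma adjusted p = 1.17e-07) and the IgE receptor chain Fcer1a by 2.25 (adjusted p = 0.000928), while Hdc, which makes histamine and is also known from neutrophils, rose by 2.59 (adjusted p = 2.70e-05).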
